A study of Mus musculus with 16 samples.

Results

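The total R-loop signal of Xpo4 knockout (KO) cells was compared with that of wild-type (WT) cells, using the peaks of 4 DNA:RNA hybrid immunoprecipitation sequencing (DRIP-seq) libraries that were not treated with RNase R. All peaks in the lists of KO replicates 1 and 2 and of WT replicates 1 and 2 were taken, which gave 64306 of the 77297 peaks in the series. The cells were NIH/3T3, a mouse embryonic fibroblast line. In the KO cells both copies of Xpo4 carried the same edit made with CRISPR-Cas9, and whether they were 1 clone was not stated. WT cells were the unedited line, and no other treatment was given to either genotype. The labels do not say whether replicates came from separate cultures, so p-values measure only the spread between these libraries.

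An R-loop is a stretch of DNA in which an RNA is paired with one DNA strand while the other strand is displaced. R-loops form behind transcribing RNA polymerase, most readily where the RNA is rich in G, and are known for their presence at promoters and gene ends. The S9.6 antibody binds DNA:RNA hybrids and was used to pull hybrid-bearing fragments out of DNA cut with restriction enzymes. Exportin 4, the product of Xpo4, carries cargo from the nucleus to the cytoplasm.

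Values printed 4 in a row are given in the order KO replicate 1, KO replicate 2, WT replicate 1 and WT replicate 2. Peaks of the 4 lists were merged where they overlapped. A region with a peak in both KO lists and in neither WT list is called gained, a region with a peak in every list is called kept, and a region with a peak in both WT lists and in neither KO list is called lost. These words describe calls, not tested changes. The fold enrichment of a peak is the peak caller's ratio of its summit height to the level expected at that place, and the summit height counts the fragments over the summit.

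The sequences around some of the summits show what kinds of locus fell into each class. They are printed on the plus strand of GRCm38 (mm10). Capitals mark GA or TC repeats of at least 4 units, runs of at least 4 G or C, and runs of at least 8 A or T. The first 4 carried gained peaks. Eif4a2 and Kctd10 are shown because the G runs lie on the sense strand of both genes (Eif4a2 is on the plus strand, and Kctd10 on the minus strand, where the printed C runs read as G runs). The unannotated locus is shown because it was the strongest gained region, and the Xpo4 site because it lies in the targeted gene and is a long GA repeat.
Eif4a2, chr16:23108392-23108587: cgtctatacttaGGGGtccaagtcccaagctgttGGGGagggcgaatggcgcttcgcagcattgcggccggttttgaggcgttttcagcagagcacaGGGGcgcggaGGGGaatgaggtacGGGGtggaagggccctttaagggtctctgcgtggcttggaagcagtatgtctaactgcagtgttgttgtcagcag
Kctd10, chr5:114380223-114380423: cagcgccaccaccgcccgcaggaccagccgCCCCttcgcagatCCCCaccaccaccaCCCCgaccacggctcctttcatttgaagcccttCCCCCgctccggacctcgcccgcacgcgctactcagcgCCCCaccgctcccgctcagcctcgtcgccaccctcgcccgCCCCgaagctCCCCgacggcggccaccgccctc
Unannotated locus, chr12:97061442-97061642: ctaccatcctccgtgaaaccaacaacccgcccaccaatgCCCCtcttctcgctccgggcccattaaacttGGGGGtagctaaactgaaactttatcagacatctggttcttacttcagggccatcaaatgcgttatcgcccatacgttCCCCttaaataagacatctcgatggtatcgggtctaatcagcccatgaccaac
Xpo4, chr14:57649229-57649429: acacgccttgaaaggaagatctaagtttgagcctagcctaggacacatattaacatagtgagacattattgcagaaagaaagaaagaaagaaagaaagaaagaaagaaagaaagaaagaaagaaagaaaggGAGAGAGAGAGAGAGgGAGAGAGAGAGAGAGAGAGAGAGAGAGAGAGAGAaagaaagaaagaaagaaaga

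The next carried peaks in all 4 lists. It lies in a Cdk8 intron and is shown because it was the strongest kept region. It may be a copy of ribosomal RNA sequence, since only part of that sequence was searched for.
Cdk8 intron, chr5:146261066-146261266: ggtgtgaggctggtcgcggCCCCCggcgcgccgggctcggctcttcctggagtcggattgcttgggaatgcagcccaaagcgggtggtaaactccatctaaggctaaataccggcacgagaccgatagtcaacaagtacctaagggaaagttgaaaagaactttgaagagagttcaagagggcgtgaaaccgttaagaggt

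The last 3 carried lost peaks. The globin stretches are shown because they are mostly coding sequence, and the third because its T runs differ from the G runs of the first group.
Hba-a2, chr11:32297072-32297205: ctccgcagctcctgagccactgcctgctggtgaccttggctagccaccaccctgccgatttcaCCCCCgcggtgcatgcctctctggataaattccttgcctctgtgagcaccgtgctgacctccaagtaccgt
Hbb-bs, chr7:103827460-103827660: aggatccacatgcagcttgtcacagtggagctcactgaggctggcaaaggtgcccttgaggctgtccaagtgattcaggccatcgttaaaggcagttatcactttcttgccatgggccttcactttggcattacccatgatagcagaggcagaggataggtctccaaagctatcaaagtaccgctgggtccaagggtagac
Unannotated locus, chrX:94882111-94882311: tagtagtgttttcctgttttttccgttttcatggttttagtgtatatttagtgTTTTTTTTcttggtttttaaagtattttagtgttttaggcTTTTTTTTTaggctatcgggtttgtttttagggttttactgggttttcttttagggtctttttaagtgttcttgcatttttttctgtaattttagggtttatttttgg

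Peaks were far more numerous in KO than in WT. The lists held 26219, 32031, 3885 and 2171 peaks. KO averaged 29125 peaks (SD 4110, 2 lists) and WT 3028 (SD 1212, 2 lists), and log2 peak number differed by 3.32. Both KO lists lay above both WT lists, and the exact permutation test gave p = 0.33, the smallest that 2 lists against 2 can give (6 arrangements, two-sided). Depth moved with genotype. The background level that the caller used was 0.843, 0.896, 0.479 and 0.489 fragments per position, so a KO peak of the same relative strength was easier to call. Depth and genotype cannot be told apart in these lists. KO peaks were therefore also rescaled to the background of the same-numbered WT list and kept where they would still pass that list's lowest p. Of KO peaks, 18491 (70.5%) and 19773 (61.7%) would have passed, and the difference to WT was then 2.72 on the log2 scale. The uniquely mapped reads that the authors report differ between KO and WT by a larger factor than these background levels. The rescaling covers the background level only, so the full difference in read number was not corrected.

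The lists merged into 47043 regions, of which 12985 (27.6%) were gained, 318 (0.676%) were kept and 229 (0.487%) were lost. Among gained regions, 8415 (64.8%) would have passed in both WT lists at the WT background. The peak calls differed between replicates too. Of KO replicate 1 regions, 54.2% had a peak in KO replicate 2, and 44.4% the other way. In WT, 17.1% of replicate 1 regions had a peak in replicate 2, and 30.6% the other way. Against this, 42.6% and 49.0% of the regions of WT replicates 1 and 2 had a peak in at least 1 KO list. With KO replicate 1 or 2 left out, 30193 and 24581 regions met the rule for gained. With WT replicate 1 or 2 left out, 616 and 902 met that for kept, and 1113 and 2231 that for lost.

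**Figure D1:**
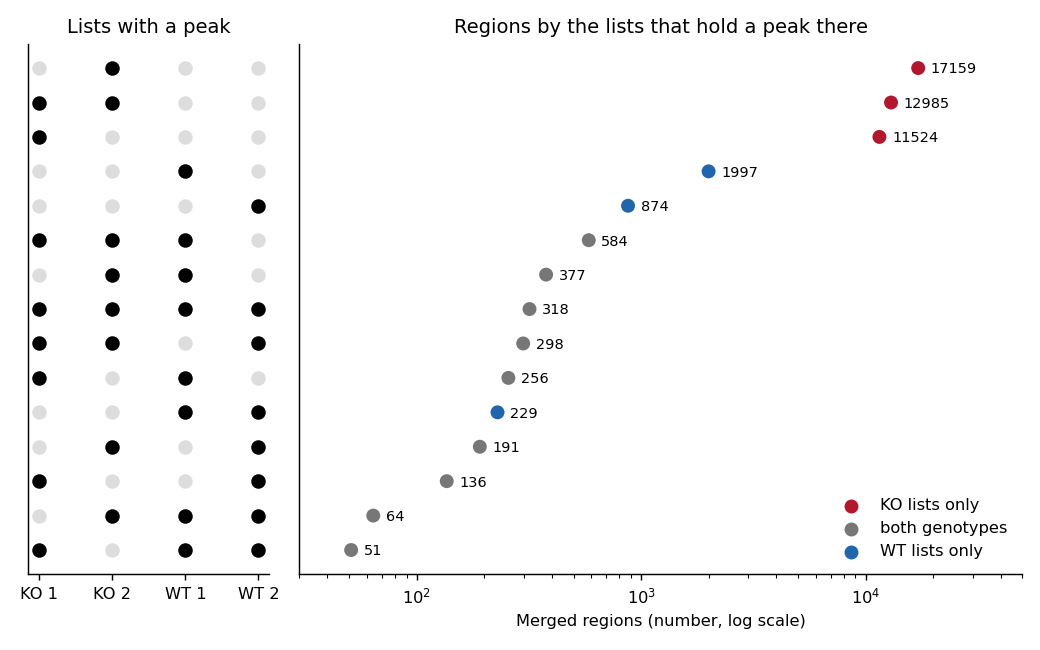
Merged regions by the lists that hold a peak there (filled dots, left) with the number of regions on a log scale (right), for KO replicates 1 and 2 and WT replicates 1 and 2. Regions with peaks in KO lists only came to 17159 (KO replicate 2 alone), 12985 (both) and 11524 (KO replicate 1 alone), and each pattern with a WT peak held fewer than 2000 regions.

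Kept regions were unlike the others in sequence. Of them, 58.2% had an expected level above 3 times the list's background, used here as a mark of multi-copy sequence, against 7.43% of gained and 21.0% of lost regions. Their GC content within 150 bp of the summit was 49.8%, compared with 44.0% in gained and 44.2% in lost regions. The classes also differed in their overlap with peaks called after RNase R, which degrades linear RNA. Peaks of KO replicates 1 and 2 with RNase R overlapped 73.9% and 65.4% of kept regions but 17.95% and 16.1% of gained regions. They overlapped 28.8% and 27.5% of lost regions. Peaks of WT replicates 1 and 2 with RNase R overlapped 17.0% and 19.5% of kept, 22.7% and 22.7% of lost, and 0.0462% and 0.0616% of gained regions. The authors report far fewer peaks in the WT than in the KO lists with RNase R, so few gained regions could overlap a WT one.

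The gained regions of highest fold enrichment included genes of translation helicases. After the unannotated locus at chr12:97061425-97061674 (fold enrichment 102 and 115), the next was in Fhl2, the gene of a LIM-domain cofactor of transcription, at chr1:43163093-43163924, with a fold of 99.3 and 84.9 and a summit height of 190 and 209 fragments. Eif4a2 encodes an RNA helicase of translation initiation, and its peak at chr16:23107953-23108712 had a fold of 60.8 and 69.6. Its paralog Eif4a1 had a fold of 66.7 and 52.3 at chr11:69670526-69672308. Both summits lay about 1 kb inside the gene, 1048 and 965 bp from the start. Kctd10, the gene of an adaptor of a cullin ubiquitin ligase, had 45.6 and 46.9 at chr5:114379844-114380470, with the summit 185 bp from its start.

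Atf4, a transcription factor of the stress response, carried its gained peak in a coding exon at chr15:80256961-80257993, with a fold of 58.8 and 33.2. Hnrnpdl, which encodes a heterogeneous nuclear ribonucleoprotein, had 40.7 and 47.0 at chr5:100036468-100037076. The gene of the import receptor importin beta, Kpnb1, had its summit upstream, at -344 bp from the start, at chr11:97187575-97188543, with 39.6 and 43.9. The last of the first 10, at chr13:13860617-13861009, was made of telomere-like repeat and had 29.7 and 55.7. Each of the first 10 gained regions would have passed at the WT background in both replicates. All 10 also had peaks in both KO lists with RNase R and in neither of the far shorter WT lists with RNase R.

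In Xpo4 itself, the edited gene, 1, 2, 0 and 0 summits were called. The highest fold was 6.51 in KO replicate 1 and 9.49 in KO replicate 2, at the GA repeat printed above. Peak calls do not show whether the gene was edited.

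The 5 lost regions of highest fold included 4 in globin genes. Hba-a2, an adult alpha-globin gene, carried WT peaks at chr11:32296488-32297294 with a fold of 31.2 and 33.6. Hba-a1, the other adult alpha-globin gene, had 37.6 and 26.0 at chr11:32283913-32284476. Hbb-bs, an adult beta-globin gene, held a pair of lost regions, at chr7:103826532-103826817 with 18.9 and 15.9 and at chr7:103827440-103827923 with 16.9 and 16.8. The WT peaks covered mostly exons: between 73.2% and 96.8% of their bases lay in exons of the globin gene. No peak was called in any list at Hbb-bt, Hbb-y, Hbb-bh1 or Hba-x, the other globin genes looked up after these values were seen. Globins are genes of red cells and not of fibroblasts, and the origin of the signal was not tested. Alpha-globin copies are nearly identical, so reads may be split between them. None of these 4 regions had a peak in any of the lists with RNase R.

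The other lost regions among the first 10 lay mostly in repeated sequence. The strongest of these, at chrX:94882050-94882362, ranked above both Hbb-bs regions and had a fold of 19.6 and 16.1. In Ndst3, which encodes a heparan sulfate-modifying enzyme, an intronic tandem repeat at chr3:123676558-123679601 had 12.9 and 16.1. Soft-masked repeats made up between 87.7% and 100% of the 300 bp around the summit at 5 of these 6 loci, and 8.31% at chr15:88575142-88576806. Although little of it was soft-masked, the stretch around that chr15 summit is also a sequence repeated in tandem.

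Some regions resembled mitochondrial DNA or ribosomal RNA genes, or held TTAGGG units. A copy of mitochondrial DNA at chr1:24611537-24616193 had summit heights of 4158, 4193, 1205 and 1225 fragments. Divided by the background level of each list, these were 4931, 4680, 2515 and 2505. The unannotated gained locus on chromosome 12 also resembled mitochondrial DNA, since 80.1% of its 20-base words occur in the mitochondrial chromosome. At chr6:3200553-3201662, where 52.1% of the words match ribosomal RNA, heights were 166, 159, 83 and 89. Divided by the background level they were 197, 177, 173 and 182, which is close between the genotypes. Regions with at least 3 units of TTAGGG in a row within 150 bp numbered 32. Of these, 18 were kept, 6 were gained and 0 were lost, while 14 of 272550 evenly spaced genome positions had such units. Because such copies cannot be placed with certainty by short reads, their locations are uncertain. The ribosomal reference held only an 18S copy of 1849 bp and a 28S fragment of 420 bp. The rest of 28S was not searched for, so a region without a match may still hold ribosomal sequence.

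The strongest kept region, in a Cdk8 intron (chr5:146260937-146261368), had a fold of 185, 170, 122 and 125. Cdk8 encodes a kinase of the Mediator complex. In Lars2, which encodes the mitochondrial leucyl-tRNA synthetase, the 3' untranslated exon at chr9:123461586-123462205 had heights of 375, 457, 230 and 232 fragments and a fold of 204, 242, 23.6 and 29.2. An intron of Gphn, the gene of gephyrin, had heights of 165, 152, 81 and 110 at chr12:78350741-78351232. Divided by the background level of each list, heights were 445, 510, 480 and 474 at Lars2 and 196, 170, 169 and 225 at Gphn. At Cdk8 they were 409, 359, 376 and 378. The share of words matching ribosomal RNA was 0% at Cdk8, Lars2 and Gphn, but the ribosomal reference was incomplete. These loci may therefore still hold ribosomal sequence, and their signal cannot be assigned to the named genes.

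Heights were then compared at the 303 kept regions on assembled nuclear chromosomes, as log2 of the height over the background level of the list. With limma and Benjamini-Hochberg adjustment over these loci, 34 (11.2%) were higher in KO and 70 (23.1%) were higher in WT at an adjusted p under 0.05. The median difference between KO and WT was -0.14 on the log2 scale, with quartiles of -0.59 and 0.28. A locus entered this comparison only if it was called in every list, so genes with no WT peak are absent from it. The direction depended on the scale. With heights centred on each list's median, 71 were higher in KO and 35 in WT, and with the deposited fold enrichment, 32 and 12. Without KO replicate 2, WT replicate 1 or WT replicate 2, 69, 51 and 43 loci were called.

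The loci named next, all past the threshold, kept their direction on the deposited fold. At Gphn, which was not past it, the difference of -0.0979 turned, with a fold of 90.1, 80.7, 48.9 and 74.2. Malat1, a nuclear long noncoding RNA, had heights of 317, 337, 17 and 13 at chr19:5797907-5802776. The difference there was 3.61 ± 0.21 (SE) on the log2 scale, and the fold enrichment was 173, 178, 11.4 and 9.40. Both KO lists lay far above both WT lists at this gene.

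Heights at Rn7s1, Rn7s2 and Rn7sk were higher in WT. Rn7s1 and Rn7s2 encode the RNA of the signal recognition particle, which RNA polymerase III transcribes. At Rn7s1 (chr12:69159289-69159617) the heights were 13, 18, 60 and 82, and the difference was -3.04 ± 0.23 (SE) on the log2 scale. At Rn7s2 (chr12:69361157-69361488) they were 22, 27, 70 and 64, and the difference was -2.30 ± 0.20 (SE). Rn7sk, the RNA that holds the elongation factor P-TEFb inactive, had 25, 18, 31 and 36 at chr9:78175329-78175636, a difference of -1.50 ± 0.24 (SE). Raw heights were also lower in KO at all 3, despite the higher KO background. Their sequences have many close copies, so reads at them are uncertain.

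The genome classes of the summits shifted toward genes in KO. Promoter summits (within 1000 bp of a transcript start) made up 10.6%, 10.3%, 6.86% and 8.17% of each list, against 5.87% of evenly spaced positions. Exons outside promoters held 3.92%, 3.80%, 1.20% and 1.17% (3.12% of even positions). Within these, coding exons held 1.52%, 1.41%, 0.235% and 0.235%, and 3' untranslated exons 1.39%, 1.42%, 0.417% and 0.423%. WT summits thus fell in exons less often than even spacing gives, while KO summits fell there more often. Intergenic shares were 47.0%, 47.3%, 53.0% and 51.6% (53.7% of even positions). Introns held 38.5%, 38.5%, 38.9% and 39.1% (37.3%), and the sign of that small difference depended on the settings.

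KO and WT lists did not overlap in any of the 4 class shares, and each exact permutation test gave its smallest p of 0.33 (adjusted 0.33). The size of the difference depended on the peaks compared. With each KO list cut to as many peaks as its same-numbered WT list, strongest first, the promoter share was 15.8% and 19.9%, and the exon share 5.64% and 7.32%. With only peaks of −log10 q of at least 5 in every list, the promoter difference was 1.94 percentage points in place of 2.95, and the intergenic difference -4.21 in place of -5.13.

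Around protein-coding gene starts the lists were most unlike on the transcribed side. Summits within 1000 bp downstream of a start numbered 620, 732, 19 and 21, or 2.37%, 2.29%, 0.495% and 0.986% of the lists (0.777% of even positions). Within 1000 bp upstream, the shares were 1.05%, 1.105%, 0.704% and 0.798%. KO summits were thus most frequent just inside genes. Downstream of gene ends, where transcripts terminate, the shares were 1.72%, 1.65%, 0.626% and 0.845% (0.754%). The KO lists lay above the WT lists in each of these windows, with p = 0.33 in the exact permutation test.

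**Figure D2:**
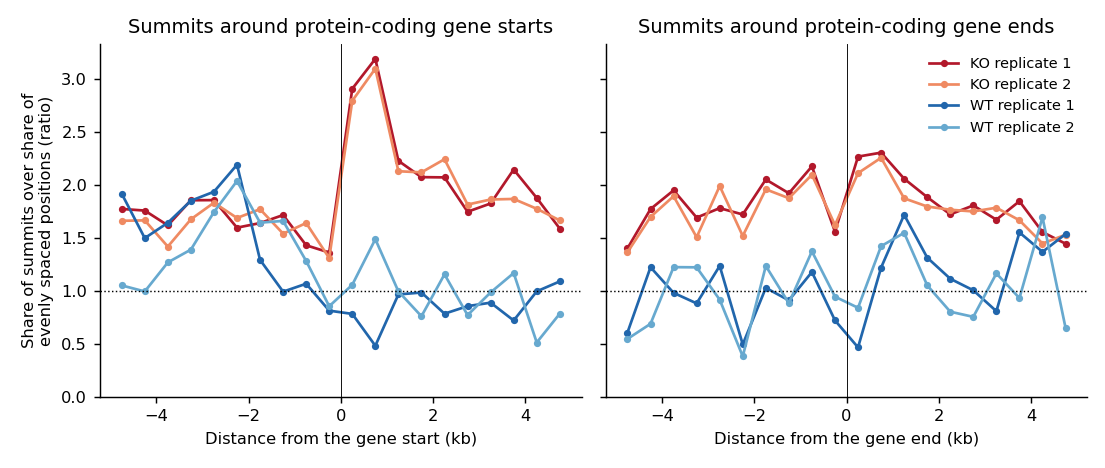
Share of summits in 500 bp steps around protein-coding gene starts (left) and ends (right), divided by the share of evenly spaced positions, for each of the 4 lists. Negative distances lie upstream. Both KO lists reach about 3 times even spacing within 1000 bp after the start (3.19 and 3.10 at 500 to 1000 bp), where the WT lists are at 0.482 and 1.49.

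Over all summits the lists differed in strand asymmetry, while their mean GC content overlapped. Mean GC within 150 bp was 43.7%, 43.6%, 43.3% and 44.1% (41.7% at even positions). The mean of the KO lists minus that of the WT lists was -4.63 percentage points at a fold of at least 10, and 1.77 with KO lists cut to the WT number. GC skew, the excess of G over C on the sense strand of the gene, was 0.0446, 0.0301, -0.0569 and -0.0478 over summits in genes (0.0149 at even positions). It was positive in both KO lists and negative in both WT lists. Within 1000 bp downstream of gene starts it was 0.201, 0.186, -0.0572 and 0.106, and GC content there was 62.0%, 61.8%, 43.3% and 47.0%, with both KO lists above both WT lists. The WT values there rest on the 19 and 21 summits given above.

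Runs of at least 4 G on the sense strand were found at 49.2%, 49.6%, 31.6% and 33.2% of summits in protein-coding genes, and at 47.6% of even positions in genes. The same runs of C were found at 42.4%, 43.1%, 38.2% and 37.4% (47.4%). KO summits therefore carried sense G runs about as often as the genome at large, and WT summits less often. The GA repeat GAGAGAGA on the sense strand was found at 12.4%, 11.6%, 6.40% and 6.38% (2.38%). Its complement TCTCTCTC on the sense strand was found at 10.8%, 10.7%, 7.56% and 7.42% (2.63%). On either strand and in all summits, this repeat was present at 26.9%, 26.1%, 15.4% and 15.5%, and in 5.08% of even positions. Both genotypes were thus above the genome for the repeat, and KO more so.

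**Figure D3:**
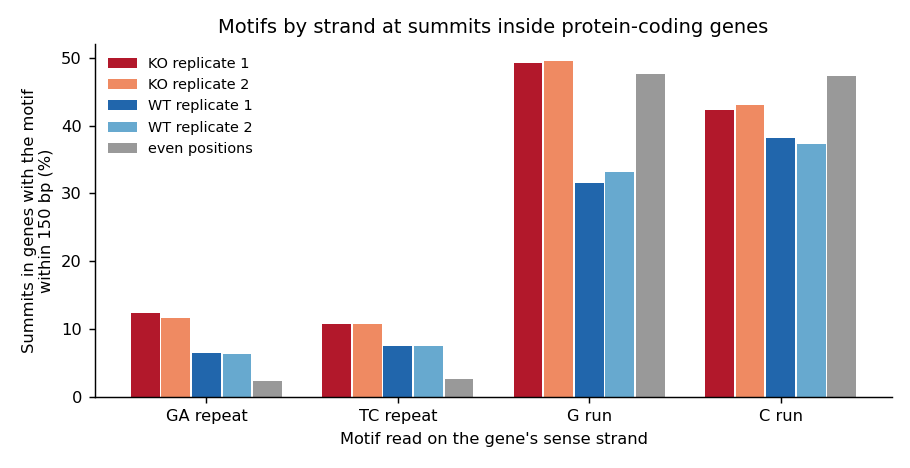
Share of summits inside protein-coding genes on 1 strand with a motif within 150 bp, read on the sense strand, for the 4 lists and for evenly spaced positions in genes. G runs were at 49.2% and 49.6% of KO summits and at 31.6% and 33.2% of WT summits, a wider gap than for C runs.

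Other features differed less. Runs of at least 8 A or T were at 28.2%, 29.7%, 27.3% and 23.7% of summits (12.5% of even positions). CACACACA or TGTGTGTG was at 7.94%, 8.33%, 7.03% and 6.98% (8.73%). Soft-masked repeats covered 61.2%, 61.5%, 64.8% and 64.5% of the bases around summits (36.4%). The restriction fragment at the summit, which sets how finely a peak can be placed, had a median length of 237, 243, 214 and 228.5 bp, compared with 91 bp at even positions. All lists thus favoured long fragments.

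At the level of genes, summits were counted in the gene body and 1000 bp upstream. Protein-coding genes with a summit numbered 6823, 7771, 1108 and 671 of 21938. Of all protein-coding genes, 4496 (20.5%) were gained, 250 (1.14%) kept and 31 (0.141%) lost. Among 33475 other genes, 1227 (3.67%) were gained, 90 kept and 21 lost. Small nucleolar RNA genes, whose products guide RNA modification, had a summit in 49, 49, 3 and 0 of 1507. All 33475 other genes had one in 2205, 2592, 449 and 296. Of the small nucleolar RNA genes 2.06% were gained, below the 3.67% of all other genes. Their median length was 127 bp, so most of the window counted was upstream sequence. Gene length entered every such count: the median was 17425 bp over all protein-coding genes, 38919 bp in gained, 259948 bp in kept and 33457 bp in lost genes. The ratio of KO to WT peaks varied with length and was lowest in the longest genes. It was 16.5 and 25.8 (replicates 1 and 2) in genes under 10 kb, 15.0 and 38.5 in genes of 10 to 30 kb, and 5.15 and 12.6 in genes over 300 kb.

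The genes with most KO peaks were long. Fgfr2, a receptor of fibroblast growth factors, had 23, 27, 0 and 0 summits. Its annotated entry spans 2960900 bp (chr7:130162451-133123350), and summits of any other gene within that span count for it too. Cemip, which encodes a hyaluronan-binding protein, had 17, 21, 0 and 1, and Pakap had 16, 14, 0 and 0. Ptprd, a receptor tyrosine phosphatase gene of over 2 Mb, had 35, 39, 16 and 9. Summits were thus absent or nearly so in WT at the first 3 and frequent in both genotypes at the last.

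Among genes of at most 50 kb, several had many KO peaks and no WT peak. Amotl2, the gene of an angiomotin-like protein of cell junctions, had 7 and 7, and Sparc, which encodes a collagen-binding matrix protein, had 6 and 6. Eif4g1, the scaffold of the cap-binding complex, had 6 and 7, and Ubtf, a transcription factor of RNA polymerase I, had 6 and 9. Of these, Amotl2 had the highest fold, 23.9 and 20.04.

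Promoters of protein-coding genes had a summit within 1000 bp in 944, 1141, 44 and 38 of 21938 cases. Of these promoters, 679 (3.1%) were gained, 5 kept and 9 lost. The strongest gained promoters were those of Eif4a1, of Kctd10 and its divergent neighbour Ube3b, and of Kpnb1. Below these were Rps16, a ribosomal protein gene, with a fold of 33.0 and 38.4, and Eif4b, a cofactor of the eIF4A helicase, with 27.4 and 39.8. The shared start region of Baz2b and March7 had 39.5 and 27.4. The 5 kept promoters were those of Rps29, Hba-a1, Sult2a1, Znhit6 and Gm10800. At Rps29 the summits lay in the neighbouring Rn7s1, and at Hba-a1 the KO peaks had a fold of 6.54 and 4.63 and lay upstream of the WT peak. The lost promoters were Hba-a2, Hbb-bs and 7 predicted genes in repeats, the latter with a fold of at most 2.44.

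Gene lists were counted against the 20.5% of protein-coding genes that were gained. Ribosomal protein genes had 38 of 82 members gained (46.3%) and 1 kept. They held 164, 153, 2.73 and 2.73 peaks per Mb, against 11.6, 14.1, 1.36 and 0.76 over all protein-coding genes. In all lists, summits up to 1000 bp upstream were counted, but the length was that of the gene body alone. This raises the density most where genes are short. The median length was 3.33 kb in ribosomal protein genes and 17.4 kb in all protein-coding genes. Rps18 had a fold of 29.8 and 24.8 in KO. The single kept member was Rps29, through the summit in Rn7s1. Since ribosomal protein genes have many processed copies, reads in their exons may be split.

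Immediate early genes, which serum and stress induce within minutes, had 16 of 24 members gained, and none had a WT summit. Their density was 113, 121, 0 and 0 peaks per Mb. The WT count of 0 allows a density of up to 14.8 per Mb (upper limit of the exact Poisson 95% interval, counting error only). Srf, the transcription factor that drives many of these genes, had a fold of 18.5 and 28.9. Fos had 16.8 and 21.1, and Junb, a partner of Fos in AP-1, had 15.7 and 20.2. After rescaling to the WT background the count was 16 as well, while that over all 21938 protein-coding genes fell from 4496 to 3224.

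Genes of fibroblast structure were also gained more often than genes at large. Of the fibroblast identity genes, 12 of 16 were gained, of the actin cytoskeleton genes 21 of 30 and of the extracellular matrix genes 18 of 31. The median member had 1 summit in each KO list in the identity and matrix lists and 0 in each WT list, and the median over all protein-coding genes was 0 in every list. Pdgfra, the receptor of platelet-derived growth factor A, had 8, 4, 0 and 0 summits and a fold of 25.9 and 30.7. Col1a1, a chain of type I collagen, had 4, 6, 0 and 0, and Thbs1, the matrix glycoprotein thrombospondin 1, had 7, 5, 0 and 0. Zyx, which encodes the focal adhesion protein zyxin, had a fold of 36.5 and 37.6.

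Genes of RNA handling followed. Of splicing factors 19 of 42 were gained, of R-loop processing genes 17 of 40 and of nuclear transport genes 16 of 38. Hnrnpa1, an RNA-binding protein of splicing, had a fold of 19.5 and 27.95. Dhx9, an RNA helicase that can unwind R-loops, had 26.0 and 13.9, and Ddx39b, an mRNA export helicase, had 10.2 and 9.99. Ran, the GTPase of nuclear transport, had 21.1 and 27.8, and Xpo1, the main export receptor, had 18.7 and 17.0. After rescaling, the counts were 17, 14 and 12, while 3224 of all 21938 protein-coding genes were gained.

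Of DNA damage response genes, 6 of 33 (18.2%) were gained and 1 kept, near the 20.5% gained of all protein-coding genes. The count was 4 after rescaling and 12 without KO replicate 1. Over all 21938 protein-coding genes, 3224 and 6610 were gained under these settings. Xrcc6, which encodes the Ku70 subunit that binds broken ends, had a fold of 8.14 and 8.86. Prkdc, the kinase that Ku recruits, was the kept member with 5, 4, 4 and 1 summits. Hox genes had 7 of 39 gained (17.9%), also near that share.

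Markers of other cell types gave a mixed picture. Over all protein-coding genes 20.5% were gained. Of hepatocyte genes 6 of 26 (23.1%) were gained, and of male germ cell genes 3 of 25 (12%, with Tex14 kept). Of neuron genes 5 of 27 (18.5%) were gained, with 12 more kept. After rescaling, these counts were 2, 2 and 3, and without WT replicate 1 the neuron count was 8. All protein-coding genes, 21938 in number, had 3224 gained after rescaling and 5030 without WT replicate 1. The neuron list is made of long genes, with a median of 460 kb, and its density of 8.46, 11.8, 2.46 and 1.34 peaks per Mb was below that of all genes in KO and above it in WT. Lrp1b, a long lipoprotein receptor gene, had 14, 18, 1 and 1 summits. Olfactory receptor genes, which are mostly silent outside the nose, had 19 of 1135 gained (9 after rescaling, 53 without KO replicate 1 and 34 without KO replicate 2). Without KO replicate 1 or 2, 6610 and 5741 of all protein-coding genes were gained. No replication histone gene was gained among 68, and these had 0, 2, 1 and 0 summits in all. The clustered protocadherins had 30 of 57 gained, but their members overlap, so 1 peak counts for several. Zfp genes had 87 of 394 gained (22.1%, near the share of all protein-coding genes) and 7 kept.

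Nuclear noncoding RNA genes had 7 of 24 gained and 3 kept, where 3.67% of all genes that do not code for protein were gained. Those genes are mostly short, with a median of 899 bp against 4.63 kb in this list. Long intergenic noncoding RNA genes, with a median of 6426 bp, were gained in 8.17% of cases. Neat1, the scaffold RNA of paraspeckles, had a fold of 31.7 and 33.6, and Gas5, a host of small nucleolar RNAs, had 21.2 and 25.7. The kept members were Malat1, Rn7sk and Snhg14. Of these, Malat1 was higher in KO, and both others were higher in WT. Snhg14 had heights of 12, 18, 18 and 23 at chr7:59760056-59760404 and a difference of -1.31 ± 0.24 (SE) on the log2 scale.

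**Figure D4:**
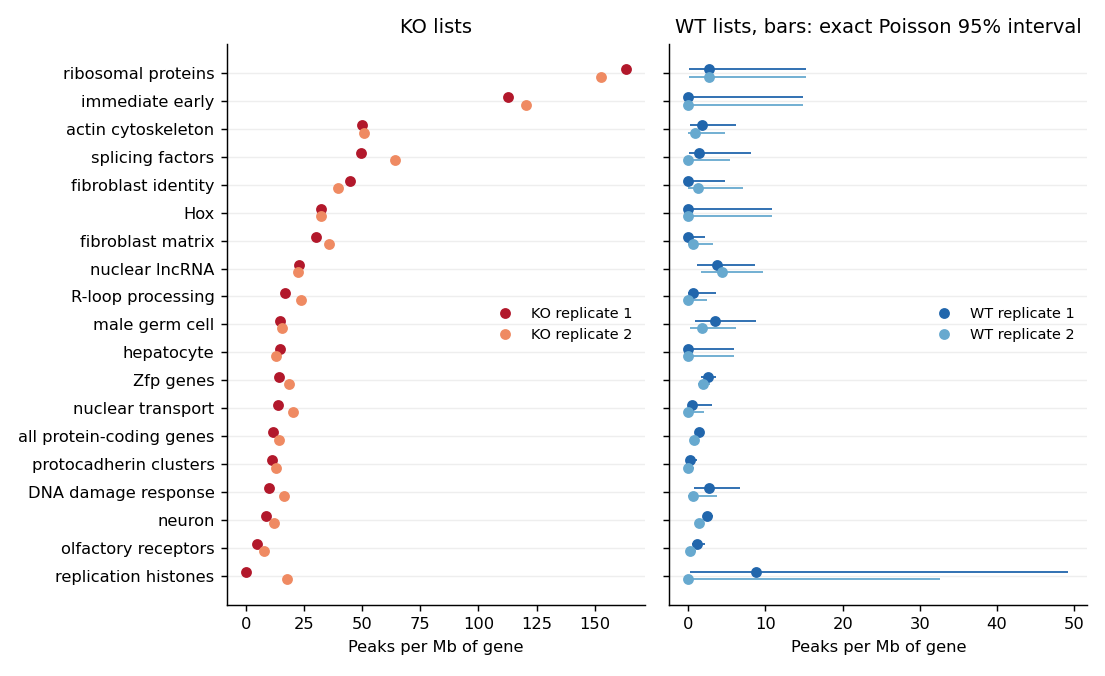
Peaks per Mb of gene in 18 gene lists and in all protein-coding genes, for the KO lists (left) and the WT lists (right, on a different scale, with exact Poisson 95% intervals that cover counting error only). Ribosomal protein genes (164 and 153) and immediate early genes (113 and 121) have the highest KO densities, while all WT values are under 10. Summits up to 1000 bp upstream are counted, but the length is that of the gene body, which raises the values of short genes most.

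Peaks were spread over every chromosome, and unevenly. KO lists held between 7.83 and 39.3 times the WT peaks of replicate 2 on autosomes and the X, lowest on chromosome 8 and highest on the X. In replicate 1 the same chromosomes marked the ends, with 3.92 and 17.0. On the Y the ratios were 2.14 and 2.83, from 30, 34, 14 and 12 peaks. Chromosome order by peak density was shared within each genotype (Spearman's rho 0.995 in KO and 0.986 in WT, over 21 chromosomes) and less so between genotypes (0.734 to 0.745). These are descriptions, since chromosomes differ in gene content and repeats and all points of a list come from 1 library.

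**Figure D5:**
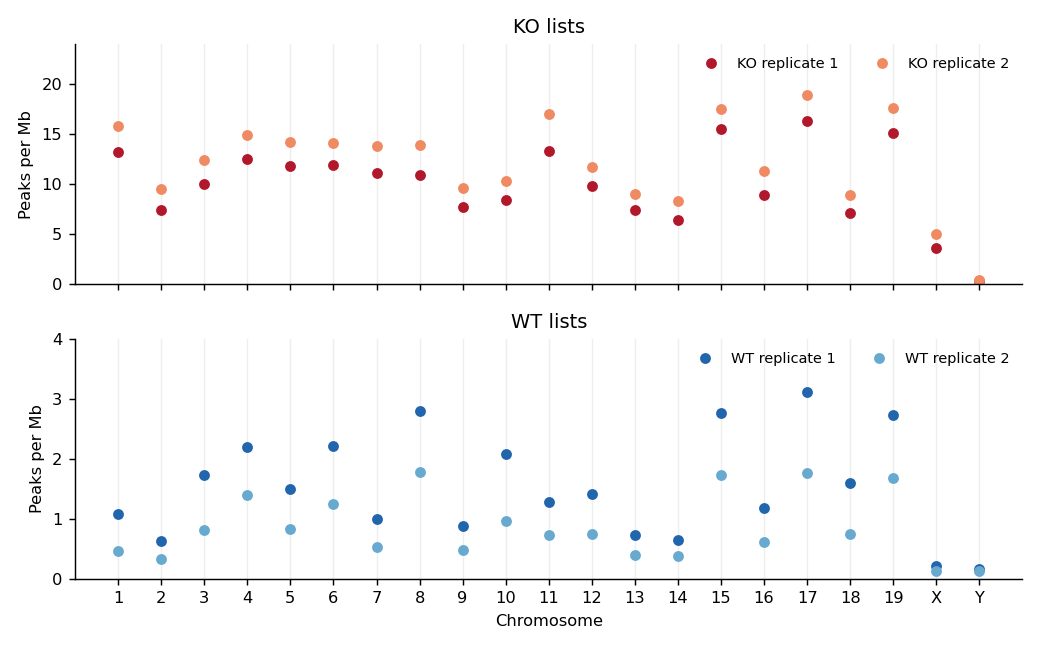
Peaks per Mb on each chromosome in the KO lists (top) and the WT lists (bottom, on a different scale). Chromosome 17 is highest in both KO lists (16.3 and 18.9 per Mb), and chromosomes 8, 15, 17 and 19 are the highest in both WT lists.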

How the data were processed

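DRIP-seq peak lists of 4 immunoprecipitates without RNase R (KO and WT, 2 replicates each) were analysed, and 4 lists with RNase R were used for overlap only. The 8 inputs were not analysed here. The authors trimmed paired reads, aligned them to GRCm38 (mm10) with Bowtie2, removed duplicates, poorly matching and non-unique reads with SAMtools 1.1 and called peaks per replicate with MACS2 at a q of 0.001. MACS2, SAMtools and mm10 are also named in the submitters' processing notes. The control library given to the caller was not stated. Each row has 10 columns. The deposited fold enrichment is the ratio of summit height to expected level, with 1 added to each. The deposited p and q values are −log10 values. The deposited score is a whole number made by the caller and was not used. All 3885 peaks of WT replicate 1 carry names made for replicate 2, while 0 rows of these lists are identical, so both were counted.

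Calling each replicate on its own ties peak number to depth, and removal of non-unique reads thins repeats. The lists hold no read totals, and those the authors report were not used. Whole summit heights were recovered from the fold and p of every peak (100%), and the lowest expected level of a list was taken as its background. Peaks were merged by overlap (checked against bedtools 2.31.1). Summits (start plus the summit offset) were placed in GENCODE genes of GRCm38 with promoters of 1000 bp on either side of transcript starts, then exons, introns and intergenic sequence, and were compared with 272550 positions spaced 10000 bp apart. Shares and counts per list were tested with two-sided exact permutation tests, and heights at shared loci with limma 3.58.1 in R 4.3.3. Peak recovery, merging and the limma step were tested on simulated data.

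Named were the 10 gained, kept and lost regions and 10 gained promoters of highest mean fold, the 10 protein-coding genes with most KO peaks (also among those of at most 50 kb), the 4 strongest gained members per gene list, and the height differences past the threshold. Not all of these are printed: loci on chromosome 18 were counted but not named, and some other items are not reported here. Members and gene lists were chosen with earlier results of these data known. Alternatives changed the background level, thresholds, multi-copy sequence, overlap, windows, annotation, pairing and libraries.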

Additional observations from a re-analysis of the deposited data

How the results depend on the processing

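The higher peak number in KO, and the higher promoter and exon and lower intergenic shares, had the same direction under all alternatives tried. For peak number the log2 difference was 2.72 to 3.96 over all alternatives. Counts of regions and genes depended on the rule. Gained regions came to 8415 after rescaling to the WT background, 1409 at a fold enrichment of at least 10 and 41668 where 1 list sufficed, and to between 13283 and 30193 with 1 library left out. Kept regions came to 61 at that fold, 133 without multi-copy peaks, 2275 where 1 list of each genotype sufficed, and 366 to 902 with 1 library left out. Lost regions came to 36 at that fold, 3100 where 1 list sufficed and 280 to 2231 with 1 library left out. Gained, kept and lost protein-coding genes came to 845, 23 and 9 at that fold, and kept and lost ones to 260 to 784 and 41 to 154 with 1 library left out. Fewer lists to satisfy make these counts larger by construction. The intron share difference, -0.49 percentage points, turned to 1.07 at a fold of at least 10 and 0.92 with protein-coding genes only. The GC difference, -0.00479 percentage points, turned to 0.127 without multi-copy peaks and 1.77 with KO lists cut to the WT number, and ranged from -0.409 to 0.399 with 1 library left out. Loci with called height differences, 104 of 303, numbered 33 of 59 tested at a fold of at least 10, 34 of 131 without multi-copy peaks, 44 of 303 on the deposited fold and 43 to 78 of 303 with 1 library left out, and whether they were the same loci was not counted. The median height difference turned from -0.14 to 0.15 at that fold, 0.11 on the deposited fold and 0.15 after centring. The causes of these turns were not tested. Alternatives for gene lists, gene starts, GA repeats, GC skew, the median height and heights with a library left out were chosen after seeing the data.

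With same-numbered lists as pairs (replicate block), the peak number difference stayed 3.32 on the log2 scale with an exact sign-flip p of 0.5, the smallest it can give, and the block in the limma fit left 46 called loci. Differences between replicates at the 303 shared loci correlated by 0.0133 between genotypes. Whether same-numbered lists share a batch was not stated, and a correlation over these loci alone cannot settle it.

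With 2 lists per genotype no exact test can pass 0.05. The lower WT background limits calling in WT, and a locus without a WT peak is not shown to lack R-loops.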
